A study of Mus musculus with 30 samples.

Results

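Among the 14 mouse hearts of the peptide study with a labelled sample, 6 had high and 8 had low RNA levels of atrial marker genes, although every heart is labelled as left ventricle. The series holds 30 hearts in all. Hearts were chosen by a score, the mean over *Sln*, *Myl7*, *Myl4*, *Bmp10* and *Mybphl* of log2(CPM + 1), where CPM is the count scaled to the column total. A heart with a score above 4 was called high, and a heart with a score of 4 or less was called low. All mice were male wild-type C57BL6J, also written C57BL6 in the labels, and received daily intraperitoneal injections for 4 weeks. The labels give a start at 12 weeks of age, whereas the methods of the study also allow younger mice. The peptide was Aβ42, the recombinant human amyloid beta peptide, in 7 mice, or ScrAβ42, its scrambled sequence, in 7 control mice. The labels give the dose as 1 mg per day, whereas the methods of the study state a unit of µg. The labels describe 2 cohorts, of which 1 was killed after a glucose tolerance test and the other after echocardiography, and do not tell which heart came from which, so the cohort of a heart cannot be set beside its score. Total RNA was sequenced, and the deposited values are counts per Ensembl gene.

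The heart's atria and ventricles are built from cardiomyocytes with different gene programmes. Atrial cardiomyocytes carry their own myosin light chains (*Myl4*, *Myl7*), the calcium pump regulator sarcolipin (*Sln*), the myosin-binding protein *Mybphl*, the growth factor *Bmp10*, and granules filled with natriuretic peptide A (*Nppa*), whereas the adult ventricle uses *Myl2* and *Myl3* and makes little *Nppa* unless it is stressed. The atria adjoin the pacemaker tissue, the valves, nerve ganglia and the fat of the atrioventricular groove, which express genes of their own. Libraries were made from a piece of tissue, so more cells of a type and more RNA per cell cannot be told apart in these counts.

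The score separated the hearts with a wide gap (see the plot of the score genes by heart). The 6 high hearts, by the names in their labels, scored 9.60 (Abeta42_3455), 9.49 (Abeta42_3457), 8.29 (ScrAbeta42_3448), 7.83 (Abeta42_3458), 6.21 (Abeta42_3451) and 4.58 (Abeta42_3460), and lists of 6 values keep this order. The 8 low hearts scored between 0.66 and 2.26, and the highest of them was mouse ScrAbeta42_3449. The hearts just inside and just outside the threshold were thus mouse Abeta42_3460 at 4.58 and mouse ScrAbeta42_3449 at 2.26. Of the 7 hearts given Aβ42, 5 were high, and of the 7 given ScrAβ42, 1 was high (mouse ScrAbeta42_3448). The groups were formed from expression in the same libraries in which they are compared below, so the comparison describes which other RNAs moved with the score genes.

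The score genes themselves are described without a test of high against low hearts. *Myl7* was at 1200, 3682, 1661, 1653, 400 and 28.2 CPM of the column total in the 6 high hearts in order of score, against 0.76 to 12.2 CPM in the low hearts. *Sln* was at 522, 1267, 491, 543, 141 and 14.7 CPM in the same order, against at most 1.98 CPM. *Myl4* and *Mybphl* were also highest in Abeta42_3457 and, among high hearts, lowest in Abeta42_3460, with 4648 and 573 CPM in heart Abeta42_3457 and 42.1 and 5.64 CPM in heart Abeta42_3460. *Bmp10* did not. It was at 1267 CPM in heart Abeta42_3455, 59.2 CPM in heart Abeta42_3460, 14.6 CPM in heart Abeta42_3457 and 8.91 CPM in heart ScrAbeta42_3448, and at 0.59 and 0.19 CPM in hearts Abeta42_3458 and Abeta42_3451, within the range of the low hearts, which reached 0.90 CPM. Heart Abeta42_3460, the lowest of the high hearts, thus had the second highest *Bmp10* level.

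**Figure D1:**
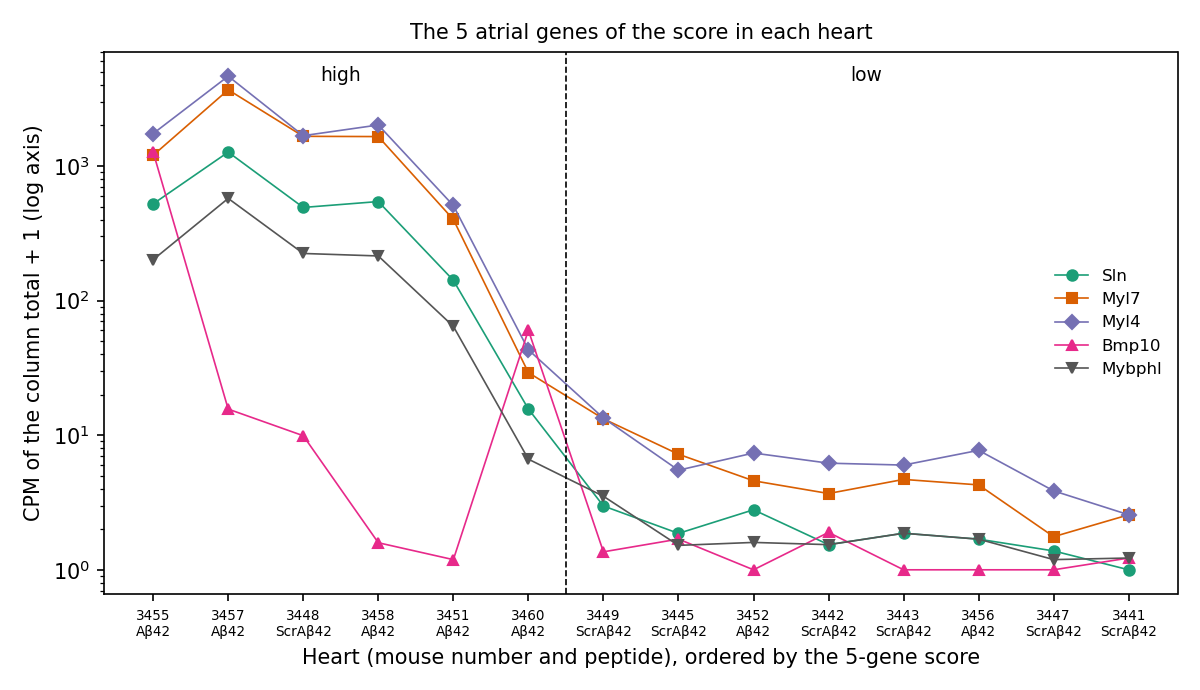
CPM of the column total plus 1 (log axis) of the 5 score genes in each of the 14 hearts, ordered by score, with the peptide under each mouse number and a dashed line between the 6 high and 8 low hearts. *Sln*, *Myl7*, *Myl4* and *Mybphl* are highest in heart Abeta42_3457 and, among high hearts, lowest in heart Abeta42_3460, while *Bmp10* is highest in heart Abeta42_3455 and near the low hearts in hearts Abeta42_3458 and Abeta42_3451.

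Total counts per heart ranged from 4478991 to 6015767, and the high hearts had on average 87759.8 counts more than the low hearts (two-sided exact permutation test, p = 0.724). The share of counts on genes of the mitochondrial genome was 17.04% ± 3.14 (SD, n = 6) in high and 19.8% ± 1.88 (SD, n = 8) in low hearts, a difference of -2.80 percentage points (two-sided exact permutation test, p = 0.0646). Without mouse Abeta42_3451 this difference was -3.63 percentage points and passed the threshold (exact permutation p = 0.0194). The 10 most counted genes of a heart took 22.3% ± 3.07 (SD, n = 6) of its counts in high and 25.1% ± 1.49 (SD, n = 8) in low hearts, a difference of -2.80 percentage points (two-sided exact permutation test, p = 0.0363). These 3 tests were not adjusted for each other and left the peptide out, although 5 high and only 2 low hearts were given Aβ42. In the hearts given Aβ42 alone the difference in mitochondrial share was -3.77 percentage points (exact permutation p = 0.1905). No pair of hearts agreed within sampling noise, and each was counted as 1 sample. Each library is a separate mouse, and the p-values measure the spread between these mice.

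High hearts were compared with low hearts in edgeR's quasi-likelihood test with the peptide as a covariate. Of 11980 genes tested besides the score genes, 133 were higher in high hearts at an adjusted p under 0.05 (1.11%) and 3 were lower (0.025%), and at an unadjusted p under 0.05 the counts were 1538 (12.8%) and 727 (6.07%). These shares of all genes are the background for the counts in each list. The genes called higher had a median log2 fold change of 1.87, from 0.45 to 7.69, and 64 of them reached 2 or more. The median over all genes tested was 0.0039, with a 5th percentile of -0.37 and a 95th percentile of 0.90. In 23 of the 133 genes every high heart lay above every low heart, a pattern found in 0.384% of all genes tested, and in 1 of the 3 lower genes every high heart lay below every low heart, against 0.125% of all genes. A gene entered the test when its counts averaged 10 or more over all hearts, so a gene near 0 in low hearts could enter through the high hearts alone and then had to differ. Of the 133 genes, 44 averaged under 10 counts in the low hearts, against 329 of all 11980. With at least 10 counts in every heart 10651 genes were tested, among them 72 of the 133, and 12 were called higher and 0 lower.

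These counts depended on how the score entered the fit, on a covariate and on single hearts. With the score as a continuous term edgeR called 1566 genes higher and 941 lower with a rising score. With a threshold of 5, which puts heart Abeta42_3460 among the low hearts, it called 1162 and 564, and with the mitochondrial share as a covariate 0 and 0. Without mouse ScrAbeta42_3448, the only high heart given ScrAβ42, edgeR called 0 genes in either direction, with 734 genes higher and 221 lower at an unadjusted p under 0.05. Without mouse Abeta42_3460, which lies just inside the threshold, it called 711 higher and 100 lower, without mouse Abeta42_3451 it called 405 and 22, and without mouse Abeta42_3457 it called 205 and 9. Without mouse Abeta42_3455 or Abeta42_3458 it called 41 or 53 genes higher and 0 lower. Leaving out a low heart gave 39 (Abeta42_3452), 25 (Abeta42_3456), 35 (ScrAbeta42_3441), 44 (ScrAbeta42_3442), 59 (ScrAbeta42_3443), 45 (ScrAbeta42_3445), 37 (ScrAbeta42_3447) or 41 (ScrAbeta42_3449) genes higher and 1 lower without Abeta42_3452 or ScrAbeta42_3445, and 0 lower otherwise. Within the 7 hearts given Aβ42, where 5 high hearts met 2 low hearts, 0 genes were called (433 higher and 116 lower at an unadjusted p under 0.05), and DESeq2 on all 14 hearts called 387 higher and 29 lower, whereas limma-voom called 0, with a smallest adjusted p of 0.0537.

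The gene with the smallest p was *Nppa* (ENSMUSG00000041616, chr4:148000722-148002079, plus strand, GRCm38), which encodes natriuretic peptide A. Its level, in CPM after TMM normalisation as for all genes that follow, was 1729, 5217, 1264, 2862, 617 and 93.9 CPM in the 6 high hearts in order of score. In the low hearts it lay between 6.74 and 54.8 CPM, with a median of 18.4 CPM, and the highest low value was that of an Aβ42 heart (Abeta42_3452). All 6 high hearts, including the ScrAβ42 heart ScrAbeta42_3448, exceeded all 8 low hearts. The log2 fold change was 6.05 (SE 0.80, adjusted p = 0.00347). Without mouse ScrAbeta42_3448 it was 6.11 with an adjusted p of 0.358, and in the Aβ42 hearts alone it was 6.10 with an adjusted p of 0.871.

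*Dkk3* (ENSMUSG00000030772, chr7:112116017-112159057, minus strand), which encodes a secreted protein of the Dickkopf family, was at 571, 851, 470, 360, 84.3 and 16.9 CPM in the same order of high hearts. The low hearts had 2.71 to 30.6 CPM, with a median of 4.30 CPM, and only mouse ScrAbeta42_3443 at 30.6 CPM lay above the lowest high heart. Its log2 fold change was 6.11 (SE 0.87, adjusted p = 0.00535). *Stard10* (ENSMUSG00000030688, chr7:101317086-101346626, plus strand), a lipid transfer protein, was at 202, 398, 180, 197, 64.0 and 23.6 CPM in high hearts and at 12.6 to 19.7 CPM in low hearts. The groups did not overlap, and the log2 fold change was 3.48 (SE 0.52, adjusted p = 0.00585). *Fgf12*, an intracellular factor that modulates voltage-gated sodium channels, was close to absent from low hearts, at 0 to 0.58 CPM, and stood at 39.2, 106, 36.3, 61.8, 17.2 and 0.99 CPM in high hearts. The lowest high heart, mouse Abeta42_3460, was only just above the low hearts, and the log2 fold change of 7.69 (SE 1.05, adjusted p = 0.00454) was set against levels near 0.

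The other 11 of the 15 genes with the smallest p are given by value. *Cilp2*, an extracellular matrix protein, had a median of 39.4 CPM in high and 0.21 CPM in low hearts (log2 fold change 7.03). *Tmem163*, a zinc transporter of vesicle membranes, had medians of 25.8 and 0.19 CPM (7.34). These levels show genes that were near 0 in most low hearts and clearly counted in 5 of the 6 high hearts, with heart Abeta42_3460 at 0.99 and 0.79 CPM. *Rxfp1*, a receptor for relaxin, *Ppp1r1b*, an inhibitor of protein phosphatase 1, and *Lmntd1* had log2 fold changes of 6.32, 6.26 and 5.98. *Fras1*, a basement membrane protein, *Plekha7*, a protein of adherens junctions, *Cacna2d3*, an accessory calcium channel subunit, and *Camk1d*, a calmodulin-dependent kinase, had log2 fold changes of 4.37, 4.26, 3.71 and 3.07. *Slc17a7*, the vesicular glutamate transporter, rose from a median of 12.2 CPM to 66.6 CPM (2.64), and the complement gene *C4b* from 12.4 to 46.5 CPM (2.63). Adjusted p for these 11 genes was between 0.00535 and 0.00941 in edgeR. High and low hearts overlapped for *Cilp2*, *Ppp1r1b*, *Lmntd1*, *C4b* and *Camk1d* and did not for *Fras1*, *Slc17a7*, *Tmem163*, *Rxfp1*, *Plekha7* and *Cacna2d3*. Of the 15 genes, *Fgf12*, *Cilp2*, *Tmem163*, *Rxfp1*, *Ppp1r1b*, *Lmntd1*, *Fras1* and *Cacna2d3* (8 genes) averaged under 10 counts in low hearts, so their place in the test came from the high hearts and their calls add nothing to their levels. All 15 genes lost their call without mouse ScrAbeta42_3448, in the Aβ42 hearts alone, in limma-voom and with the mitochondrial share as a covariate, where every log2 fold change stayed above 0, from 1.77 (*C4b*) upwards.

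The 3 genes called lower had small changes. *Klhl7* (chr5:24100605-24160792, plus strand), an adaptor of a ubiquitin ligase, was at 46.9 to 57.1 CPM in high hearts, with a median of 53.9 CPM, and at 58.1 to 66.7 CPM in low hearts, with a median of 62.6 CPM. The groups did not overlap (log2 fold change -0.31, SE 0.068, adjusted p = 0.0398). *Trpt1*, a tRNA phosphotransferase, had medians of 14.0 and 16.6 CPM (-0.50, SE 0.10, adjusted p = 0.0362), and *Mrpl40*, a protein of the mitochondrial ribosome, had medians of 19.6 and 21.1 CPM (-0.48, SE 0.11, adjusted p = 0.0481). Both overlapped between high and low hearts, and none of the 3 was called when CPM of the column total was used in place of TMM. Over the hearts left out in turn, *Klhl7* (-0.33 to -0.26) and *Mrpl40* (-0.54 to -0.43) kept the call only without Abeta42_3451, Abeta42_3457 or Abeta42_3460, and *Trpt1* (-0.57 to -0.44) only without these or ScrAbeta42_3445.

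A list of 18 other atrial genes showed how far the wider atrial programme moved with the score. Of its 17 tested members 8 rose and 0 fell, and the median log2 fold change was 1.77, with 16 members above 0. Of all 11980 genes tested 1.11% were called higher and 6073 lay above 0. With the mitochondrial share as a covariate 0 members were called and the median was 1.09, and with the score as a continuous term or a threshold of 5 15 were called higher and 1 lower. The count of members called higher was 3 without mouse Abeta42_3452 or Abeta42_3456, 4 without mouse ScrAbeta42_3441, ScrAbeta42_3447 or ScrAbeta42_3449, 5 without mouse Abeta42_3455, Abeta42_3458, ScrAbeta42_3442, ScrAbeta42_3443 or ScrAbeta42_3445, 9 without mouse Abeta42_3457, 11 without mouse Abeta42_3451, 13 without mouse Abeta42_3460 and 0 without mouse ScrAbeta42_3448. It was 13 in DESeq2, 12 without the peptide covariate, 4 of 14 with at least 10 counts in every heart, and 0 in limma-voom and in Aβ42 hearts alone. The 8 were *Nppa*, *Dkk3*, *Stard10*, *Sbk2*, *Pam*, *Tbx5*, *Kcnj3* and *Kcnj5*. Their summed level with the rest of the list was 7170, 18969, 7013, 8969, 2950 and 1576 CPM of the column total in the 6 high hearts in order of score, and 1260 to 1569 CPM in low hearts. Heart Abeta42_3460 was thus just above the low hearts and heart Abeta42_3457 far above all others.

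Among these genes, *Sbk2* (ENSMUSG00000030433, chr7:4940512-4964406, minus strand), a kinase gene used as an atrial marker, was at 74.1, 195, 72.5, 103, 36.7 and 14.5 CPM in high hearts and at 4.07 to 14.2 CPM in low hearts (log2 fold change 2.98, SE 0.51, adjusted p = 0.0128). *Pam*, the enzyme that amidates peptides and the main membrane protein of atrial granules, was at 3174, 7375, 3356, 4126, 1471 and 882 CPM in high hearts and at 703 to 904 CPM in low hearts (log2 fold change 2.13, SE 0.41, adjusted p = 0.0247). *Sbk2* did not overlap between the groups, whereas *Pam* in heart Abeta42_3460 lay within the low range. *Tbx5*, a T-box transcription factor of the atria and the conduction system, was at 117, 163, 94.5, 97.8, 40.7 and 26.2 CPM in high hearts and at 23.98 to 34.5 CPM in low hearts (1.77, SE 0.37, adjusted p = 0.0362). *Kcnj3* and *Kcnj5* encode the subunits of the acetylcholine-activated potassium channel of atrial and nodal cells. *Kcnj3* was at 182, 366, 137, 180, 91.6 and 52.4 CPM in high hearts and at 43.2 to 57.3 CPM in low hearts (1.75, SE 0.39, adjusted p = 0.0409). *Kcnj5* was at 158, 216, 159, 160, 104 and 87.7 CPM in high hearts and at 61.6 to 94.7 CPM in low hearts (0.89, SE 0.20, adjusted p = 0.0480). In the last 3 genes only heart Abeta42_3460 lay within the low range. *Sbk2* lost its call without mouse ScrAbeta42_3448, Abeta42_3452 or Abeta42_3456 (log2 fold change 2.69 to 3.18 over the 14 hearts left out in turn), *Pam* without these or mouse ScrAbeta42_3441, ScrAbeta42_3447 or ScrAbeta42_3449 (1.84 to 2.28), and *Tbx5* (1.57 to 1.90), *Kcnj3* (1.46 to 1.96) and *Kcnj5* (0.78 to 0.97) without any heart but Abeta42_3451, Abeta42_3457 or Abeta42_3460.

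Members of the list that did not pass are given by value. *Gja5*, the connexin of atrial and conduction cells, had medians of 17.2 and 5.71 CPM (log2 fold change 2.08, adjusted p = 0.0834). The calcium channel genes *Cacna2d2* and *Cacna1d* had log2 fold changes of 3.27 (adjusted p = 0.0536) and 2.10 (adjusted p = 0.0647). *Cacna2d2* was at 42.8 CPM in heart Abeta42_3455 and at 21.9 CPM in heart ScrAbeta42_3448, but at 0.79 CPM in heart Abeta42_3460, and low hearts had 0.77 to 2.84 CPM. It entered the test mainly through the high hearts. The nuclear receptors *Nr2f1* and *Nr2f2*, regulators of atrial identity, had 1.24 (adjusted p = 0.0806) and 0.51 (adjusted p = 0.247), the muscarinic receptor *Chrm2* had 0.74 (adjusted p = 0.100) and *Angpt1* had 0.97 (adjusted p = 0.277). The potassium channel gene *Kcnk3* lay near 0, at 0.07 (adjusted p = 0.680). *Kcna5*, another potassium channel gene, was at -0.29 (adjusted p = 0.335). It stayed below 0 in all 25 settings (-0.45 to -0.044) and was the member called lower with a threshold of 5 (edgeR, adjusted p = 0.0249). The secretory granule list had 9 tested members of 16, of which 2 rose (*Nppa* and *Pam*), 0 fell and the median was 0.40 (0.26 without mouse Abeta42_3457, 0.14 with the mitochondrial share as a covariate), and *Nppb*, the natriuretic peptide B gene that neighbours *Nppa*, had 34.5 to 143 CPM in high and 17.2 to 119 CPM in low hearts (0.40, adjusted p = 0.627).

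**Figure D2:**
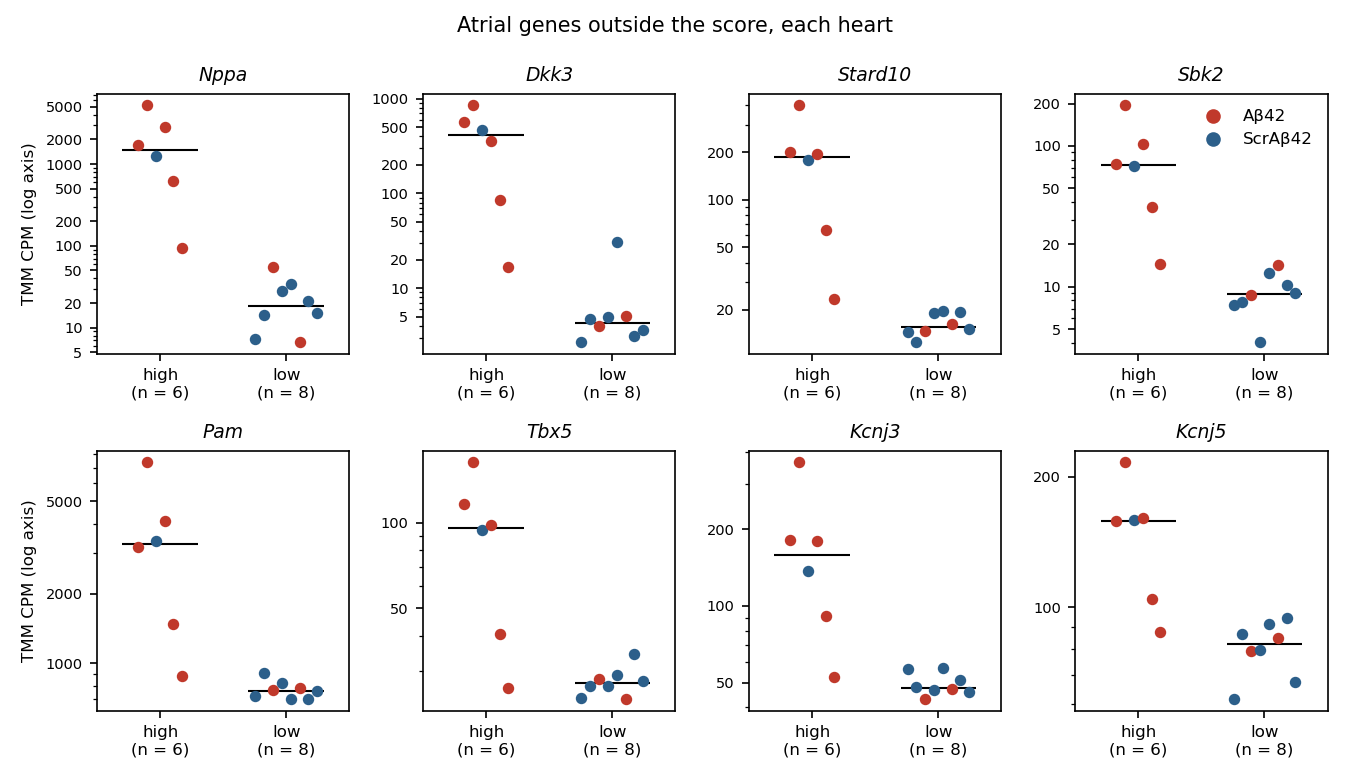
TMM-normalised CPM (log axis) of the 8 genes of the atrial list that were called higher, one point per heart, with Aβ42 hearts in red, ScrAβ42 hearts in blue and a line at the group median of the 6 high and 8 low hearts. The single high ScrAβ42 heart sits among the high Aβ42 hearts in all 8 panels, and for *Dkk3*, *Stard10*, *Pam* and *Kcnj5* both low Aβ42 hearts lie within the range of the low ScrAβ42 hearts.

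Promoters are shown for 2 of these genes, *Nppa* and *Sbk2*, because both were higher in every high heart than in every low heart and they differ in the letters they hold. They were picked after their letters had been searched. Each runs from 250 bases before to 50 bases after the RefSeq start, 5′ to 3′ on the gene's strand, in GRCm38.p6. Capitals mark matches on either strand to AGGTGT for T-box factors, AGATAA for GATA factors or AAGTGG for NKX2-5, and no matches overlap in the windows shown.
Nppa, chr4:148000472-148000771, plus strand: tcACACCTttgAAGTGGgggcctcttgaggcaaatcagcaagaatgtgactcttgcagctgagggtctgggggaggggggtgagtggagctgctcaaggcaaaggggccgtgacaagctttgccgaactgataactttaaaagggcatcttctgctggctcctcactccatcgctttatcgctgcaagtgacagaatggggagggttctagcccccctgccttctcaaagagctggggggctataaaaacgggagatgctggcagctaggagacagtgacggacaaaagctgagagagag
Sbk2, chr7:4964357-4964656, minus strand: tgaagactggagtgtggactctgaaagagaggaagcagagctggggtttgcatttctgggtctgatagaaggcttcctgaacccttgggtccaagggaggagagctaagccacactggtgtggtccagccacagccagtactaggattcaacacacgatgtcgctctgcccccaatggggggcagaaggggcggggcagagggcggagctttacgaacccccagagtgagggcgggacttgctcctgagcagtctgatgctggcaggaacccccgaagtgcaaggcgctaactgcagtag
The *Nppa* window holds the T-box letters in reverse complement (ACACCT) at position -248 from the start and the NKX2-5 letters at -239, and the *Sbk2* window holds none of the 3. Of the genes called higher, 92 matched a RefSeq promoter entry by symbol, with 120 promoters in all. T-box letters were in 10.8% of these promoters, GATA letters in 7.5% and NKX2-5 letters in 15.0%. The shares were 10.5%, 6.36% and 16.5% in 11967 promoters of genes tested, and 13.7%, 11.2% and 16.9% in all 32851 promoters. A match is a description of letters in the window only.

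Ventricular genes did not pass when high hearts were compared with low hearts. Of 13 tested, 0 were called in edgeR, 4 were lower at an unadjusted p under 0.05, 12 lay below 0 and the median log2 fold change was -0.49. With the mitochondrial share as a covariate the median was -0.016. *Myl2*, the ventricular regulatory myosin light chain, was at 3898, 804, 3684, 4112, 6474 and 7134 CPM in the 6 high hearts in order of score, and at 5681 to 7379 CPM in low hearts (-0.63, adjusted p = 0.375). *Myl3*, the essential light chain, had the same order, at 2860, 737, 2745, 3125, 4609 and 5231 CPM, against 4241 to 5501 CPM in low hearts (-0.66, adjusted p = 0.310). The 4 hearts with the highest atrial scores thus lay below every low heart for both genes, heart Abeta42_3457 far below, and hearts Abeta42_3451 and Abeta42_3460 lay within the low range. Both genes, which define the labelled tissue, were at 737 CPM or more in all 14 hearts, with the lowest levels in heart Abeta42_3457.

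The other ventricular genes are given by value. *Irx4*, a transcription factor of the ventricle, was at 3.30 CPM in heart Abeta42_3457 and at 10.6 to 21.5 CPM in the other high hearts, against 17.2 to 26.6 CPM in low hearts (log2 fold change -0.77, adjusted p = 0.231). *Kcnd2* and *Kcnip2*, subunits of the transient outward potassium channel, both had -0.75 (adjusted p = 0.114 and 0.286), and *Kcnip2* was at 28.3 CPM in heart Abeta42_3457 and at 104 to 222 CPM in the other high hearts, against 134 to 248 CPM in low hearts. *Prdm16*, a transcriptional regulator of the compact ventricular wall, had the smallest p of the list (-0.47, adjusted p = 0.0645). The summed level of the 13 genes was 13528, 5798, 13651, 13619, 18591 and 19580 CPM of the column total in the same order, against 17413 to 19355 CPM in low hearts. Heart Abeta42_3460 was above all low hearts in this sum, heart Abeta42_3451 was within their range, and the other 4 were below it. Of the 13 genes edgeR called 9 lower with the score as a continuous term, with a threshold of 5 it called 3 and without mouse Abeta42_3460 it called 2. Without mouse Abeta42_3451 or Abeta42_3457 it called 1. DESeq2 on all hearts called 2, whereas limma-voom called 0.

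**Figure D3:**
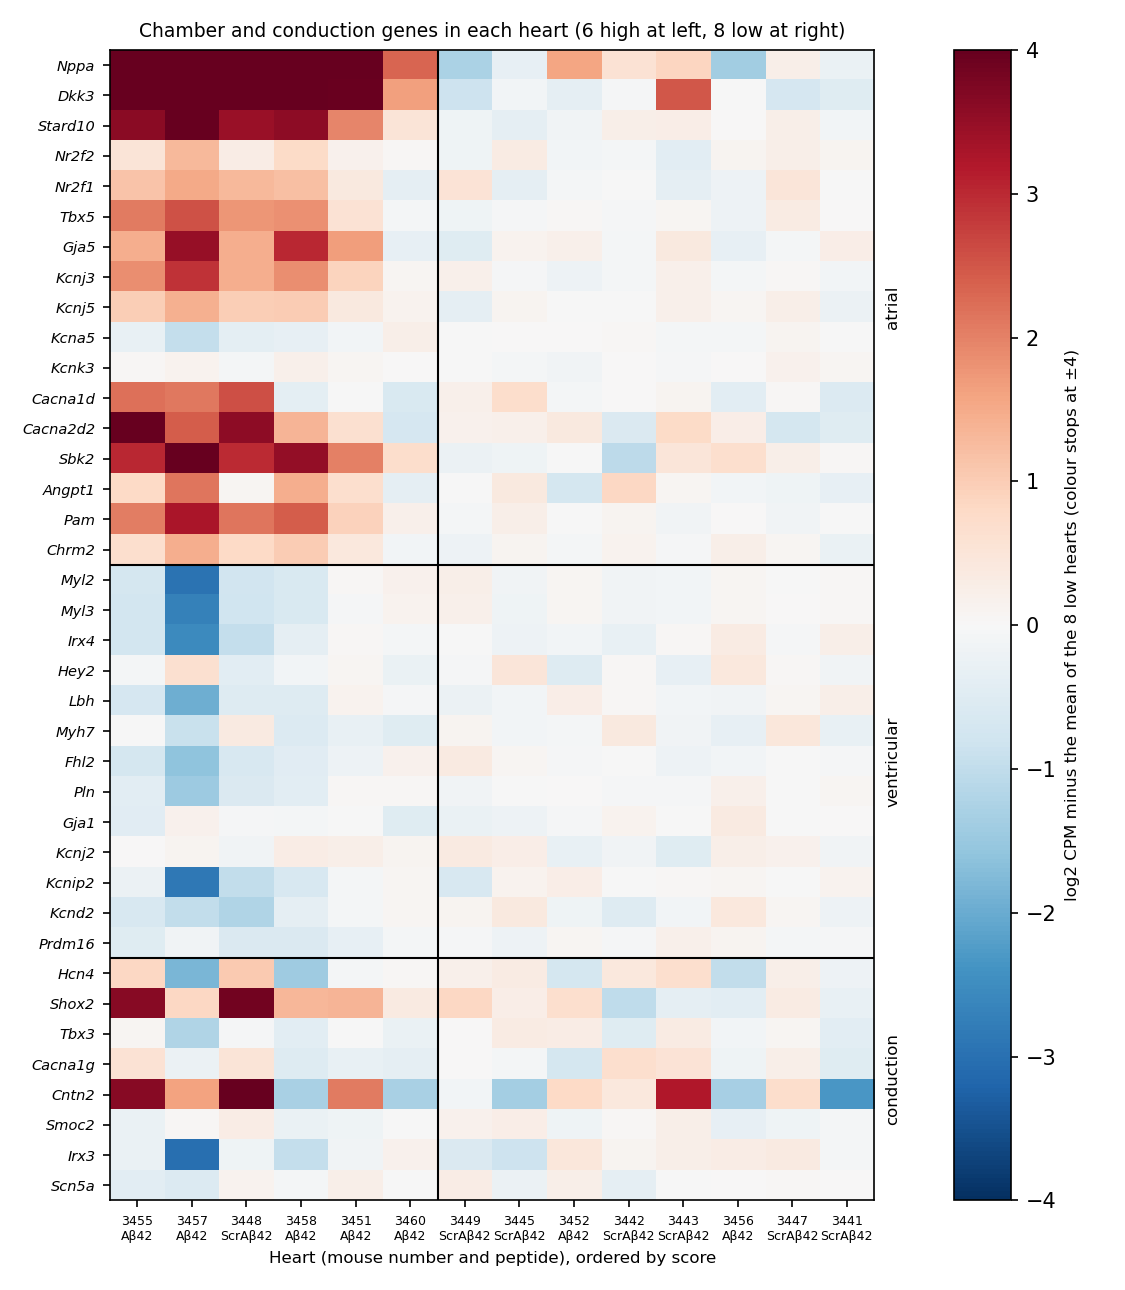
Log2 CPM minus the mean of the 8 low hearts, for genes of the atrial, ventricular and conduction lists (rows) in the 14 hearts ordered by score (columns), with red above and blue below the low hearts and the colour stopping at 4 in either direction. *Gja5*, which is in the atrial and conduction lists, is drawn once, and heart Abeta42_3457 has the deepest blue for *Myl2*, *Myl3* and *Kcnip2*.

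Genes of the pacemaker and conduction system were examined because that tissue borders the atria. Of 12 members 10 were tested, 0 fell and the median log2 fold change was 0.52, or -0.026 without the peptide covariate, 0.18 without mouse Abeta42_3455, 0.32 without mouse ScrAbeta42_3448, 0.16 over the 7 genes with at least 10 counts in every heart and 1.396 without a filter. The 1 gene called higher was *Shox2*, a transcription factor of the sinoatrial node, which entered the test through high hearts only and is therefore given by its level. It was at 9.17, 0.96, 10.6, 1.55, 1.58 and 0.60 CPM in high hearts and at 0 to 0.97 CPM in low hearts, and without mouse ScrAbeta42_3448 or Abeta42_3455 it fell under the filter on low counts. *Shox2* was thus high in hearts Abeta42_3455 and ScrAbeta42_3448 and near the low range in the other 4, although heart Abeta42_3457 had the highest levels of most atrial genes. *Cntn2*, an adhesion protein of conduction cells, was highest in the same hearts, at 23.1 and 57.3 CPM, and reached 17.04 CPM in a low heart (3.32, adjusted p = 0.0889). *Hcn4*, the main pacemaker channel, which was picked after its values were seen, was at 11.5, 1.51, 13.4, 2.13, 5.93 and 6.55 CPM in high hearts and at 3.00 to 10.3 CPM in low hearts (0.72, adjusted p = 0.331), so that for this gene hearts Abeta42_3455 and ScrAbeta42_3448 exceeded the low range. The sum of the 12 genes did not follow it, at 472, 504, 704, 483, 541 and 453 CPM of the column total in high hearts and 428 to 532 CPM in low hearts. Hearts ScrAbeta42_3448 and Abeta42_3451 thus exceeded the low range of the sum and heart Abeta42_3455 did not. With the score as a continuous term, or a threshold of 5, 4 of the 10 tested genes were called higher, with 3 without mouse Abeta42_3460 and 2 without the peptide covariate or in DESeq2. Leaving out mouse Abeta42_3451, Abeta42_3452, Abeta42_3457 or Abeta42_3458 gave 1 call, and leaving out Abeta42_3455, Abeta42_3456 or any ScrAβ42 heart gave 0.

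Lists of potassium channels, transcription factors and calcium handling genes had medians near 0, and their called genes are also members of the atrial list. Of 16 potassium channel and HCN genes 2 rose (*Kcnj3* and *Kcnj5*) and 0 fell, with a median of -0.03, and 6 were higher and 2 lower at an unadjusted p under 0.05. Of 13 tested cardiac transcription factors 1 rose (*Tbx5*) and 0 fell, with a median of -0.03, and 3 were higher and 1 lower at an unadjusted p under 0.05. None of 12 core sarcomere genes (median -0.23) and none of 11 calcium handling genes (median -0.08) passed in edgeR, with 0 higher and 1 lower of the former and 0 higher and 2 lower of the latter at an unadjusted p under 0.05, and 0 in DESeq2 and limma-voom. Of the sarcomere genes 11 lay below 0. With a threshold of 5 edgeR called 2 sarcomere genes and 1 calcium handling gene lower, and with the score as a continuous term it called 5 and 3 lower, among them *Tpm1*, *Tnnc1* and *Cacna1c* in both settings. With a threshold of 5 there were 3 potassium channel genes higher and 2 lower, and 3 transcription factors higher and 1 lower. Without mouse Abeta42_3460 edgeR called 3 potassium channel genes higher and 1 lower, and 2 transcription factors higher. Without any heart but this one, Abeta42_3451 or Abeta42_3457 it called 0 in both lists. In the continuous fit 5 potassium channel genes were higher and 4 lower, and 3 transcription factors higher and 2 lower. With the column total as library size the medians of the potassium channel, transcription factor and calcium handling genes were 0.13, 0.13 and 0.08, and the median of all genes tested moved to 0.166. Over the hearts left out in turn these 3 medians were -0.056 to 0.13, -0.10 to 0.056 and -0.28 to -0.035, and the sarcomere median was -0.027 with the mitochondrial share as a covariate. Of 7 tested retinoic acid genes 1 was called higher (3 without mouse Abeta42_3451, 2 without mouse Abeta42_3460 or with DESeq2, and 3 higher and 1 lower with the score as a continuous term), with a median of 0.66, or 0.35 without mouse Abeta42_3456, 0.43 without mouse ScrAbeta42_3448 and 0.22 with the mitochondrial share as a covariate. That gene was *Aldh1a3*, an enzyme of retinoic acid synthesis, with medians of 2.14 CPM in high and 1.499 CPM in low hearts. It averaged under 10 counts in low hearts and was under the filter without mouse ScrAbeta42_3448, so it is given by its level. Over the hearts left out in turn (1.91 to 2.42) it kept the call only without mouse Abeta42_3451, Abeta42_3452, Abeta42_3457 or Abeta42_3460. Without each other heart 0 retinoic acid genes were called. *Cacna1h*, a T-type calcium channel, and *Sbk3*, a paralogue and neighbour of *Sbk2*, belong to no list and were named after their values were seen. *Cacna1h* was at 146, 191, 131, 115, 38.3 and 7.34 CPM in high hearts and at 5.81 to 22.9 CPM in low hearts (3.71, adjusted p = 0.0118). *Sbk3* was at 204, 720, 195, 352, 104 and 15.7 CPM in high hearts and at 6.20 to 19.4 CPM in low hearts (4.32, adjusted p = 0.00941). In both genes only heart Abeta42_3460 overlapped the low hearts. Both lost the call without mouse ScrAbeta42_3448, and *Cacna1h* also without mouse Abeta42_3456.

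Markers of tissues that lie beside the atria were also higher in some of the high hearts. Of 5 tested valve and cartilage matrix genes 2 rose, 0 fell (4 rose without mouse Abeta42_3451 or Abeta42_3460 and with a threshold of 5 or the score as a continuous term, 3 without mouse Abeta42_3457 or ScrAbeta42_3443, 0 without mouse ScrAbeta42_3448 or Abeta42_3456, and 1 without each other heart) and the median log2 fold change was 2.92, or 1.60 with the mitochondrial share as a covariate. *Fmod*, a collagen-binding proteoglycan, was at 38.0, 67.7, 68.5, 33.4, 6.91 and 20.4 CPM in high hearts and at 3.52 to 20.98 CPM in low hearts (2.92, SE 0.51, adjusted p = 0.0155). *Comp*, a cartilage matrix protein, was at 18.2, 39.6, 113, 10.6, 1.98 and 1.79 CPM in high hearts and at 0.39 to 19.4 CPM in low hearts (4.07, SE 0.84, adjusted p = 0.0361). Heart ScrAbeta42_3448 was the highest for both, and the groups overlapped for both. *Fmod* lost its call without mouse ScrAbeta42_3448, Abeta42_3452 or Abeta42_3456 (2.70 to 3.24), and *Comp* kept it only without mouse ScrAbeta42_3443, Abeta42_3451, Abeta42_3457 or Abeta42_3460 (2.84 to 4.97). *Chad*, another cartilage protein, had 4.42 (adjusted p = 0.0697) and *Prg4*, lubricin, had 1.81 (adjusted p = 0.0686). With at least 10 counts in every heart 2 valve genes were tested and 1 was called higher. *Comp* and *Chad* had fewer than 10 counts in some heart and were not tested under that filter, and the list median of 2.92 includes both. The summed level of the 8 valve genes was 24.3 to 385 CPM of the column total in high and 16.4 to 96.9 CPM in low hearts. Of the 3 untested members *Col2a1*, the defining cartilage collagen, had at most 5 counts in any heart. *Acan*, aggrecan, had 12, 38 and 4 counts in hearts Abeta42_3455, Abeta42_3457 and ScrAbeta42_3448, 0 in the other high hearts and 0 to 3 in low hearts. *Sox9*, a transcription factor of cartilage and valves, had 9, 20, 24, 8, 8 and 2 counts in high hearts and 1 to 9 in low hearts. The part of valve tissue in the results was not tested.

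Of 15 fibroblast genes 0 passed in edgeR, but 13 were higher at an unadjusted p under 0.05, against 12.8% of all genes tested, with a median of 1.04 (0.42 with the mitochondrial share as a covariate), and DESeq2 called 6 of them higher and limma-voom 0. *Dpt* had the smallest p (1.15, adjusted p = 0.0549), followed by *Fn1* (1.30, adjusted p = 0.0647), *Mfap4* (2.19, adjusted p = 0.0686) and *Col1a1* (1.21, adjusted p = 0.0806), which are all extracellular matrix genes. Their list summed to 5079, 7519, 8490, 3436, 2519 and 1810 CPM of the column total in the 6 high hearts in order of score, against 1866 to 3348 CPM in low hearts. Hearts Abeta42_3451 and Abeta42_3460 thus did not exceed the low range. Without mouse Abeta42_3460 edgeR called 11 of the 15 higher, without mouse Abeta42_3451 it called 8 and without mouse Abeta42_3457 it called 3, and with a threshold of 5 or the score as a continuous term it called 13. The part of fibroblasts in the results was not tested.

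Adipocyte genes had the highest median of all lists besides the score genes, 3.96 over 9 tested members, of which 0 passed in edgeR and 7 were higher at an unadjusted p under 0.05, while DESeq2 called 3 and limma-voom 0. The median was 7.39 without mouse ScrAbeta42_3448, 2.27 with the mitochondrial share as a covariate and 0.074 over the 2 genes with at least 10 counts in every heart. The other members had fewer than 10 counts in some heart and could enter the test through the high hearts. Their p-values and the rank of the list therefore add nothing to their levels. *Pck1*, an enzyme of glyceroneogenesis in fat, was at 21.2, 291, 17.6, 1.35, 76.0 and 0 CPM in high hearts and at 0.19 to 7.96 CPM in low hearts (4.68, adjusted p = 0.136). *Car3* (3.96, adjusted p = 0.123), *Cidec* (4.14, adjusted p = 0.149) and *Plin1* (4.07, adjusted p = 0.174) were also highest in heart Abeta42_3457, at 247, 126 and 84.8 CPM. Without mouse ScrAbeta42_3448 the log2 fold changes of *Pck1*, *Cidec* and *Plin1* were 8.48, 7.39 and 9.96. *Ucp1*, the uncoupling protein of brown fat, which was picked after its values were seen, was at 248 CPM in heart Abeta42_3457 and 52.1 CPM in heart Abeta42_3451, at 0 to 1.35 CPM in the other 4 high hearts and at 0.37 CPM or less in low hearts (adjusted p = 0.178). The adipocyte sum was 179, 1573, 223, 50.7, 391 and 56.9 CPM of the column total, against 40.9 to 168 CPM in low hearts, so hearts Abeta42_3458 and Abeta42_3460 lay within the low range. Without mouse Abeta42_3460 edgeR called 2 of the 9 genes higher, without the peptide covariate 4, with a threshold of 5 it called 6 and with the score as a continuous term 7. The part of fat in the results was not tested.

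Mesothelial and epicardial genes, which mark the outer lining of the heart, had 10 tested members, 0 called in edgeR, 9 higher at an unadjusted p under 0.05 and a median of 1.57 (2.43 without mouse ScrAbeta42_3448, 0.92 with the mitochondrial share as a covariate), and DESeq2 called 4 and limma-voom 0. In edgeR 7 were called with the score as a continuous term, 2 with a threshold of 5, and 1 without mouse Abeta42_3451 or Abeta42_3460, without the peptide covariate or without a filter. *Upk3b* (2.03, adjusted p = 0.136), *Krt19* (1.88, adjusted p = 0.154), *Krt18* (1.80, adjusted p = 0.104) and the complement gene *C3* (1.37, adjusted p = 0.108) had the smallest p. Their sum was 214 to 1148 CPM of the column total in high and 167 to 716 CPM in low hearts. Of 9 tested macrophage genes 1 rose (2 without mouse Abeta42_3451, 6 without mouse Abeta42_3460, 8 with a threshold of 5, 9 with the score as a continuous term, 0 without the peptide covariate) and 9 were higher at an unadjusted p under 0.05, with a median of 0.63 (0.28 without mouse ScrAbeta42_3448, 0.38 with the mitochondrial share as a covariate). That gene was *Mrc1*, a mannose receptor, at 26.8 to 68.2 CPM in high and 22.9 to 38.2 CPM in low hearts (0.80, SE 0.17, adjusted p = 0.0362). It kept the call only without mouse ScrAbeta42_3442, Abeta42_3451, Abeta42_3457 or Abeta42_3460 (0.46 to 0.92). The macrophage sum was 262 to 701 CPM in high and 240 to 399 CPM in low hearts, and heart ScrAbeta42_3448 was the highest. The part of these cells in the results was not tested.

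Nerve genes had low counts in most hearts. Of 17 Schwann cell and neuron genes 8 were tested, 0 passed in edgeR and 3 were higher at an unadjusted p under 0.05, with a median of 0.41 (0.23 without mouse Abeta42_3455, 0.25 without mouse ScrAbeta42_3448, 0.70 without mouse Abeta42_3456), while DESeq2 called 1 and limma-voom 0. In edgeR 3 of the 8 were called higher without mouse Abeta42_3460, without the peptide covariate, with a threshold of 5 and with the score as a continuous term, and 1 without mouse Abeta42_3451 or Abeta42_3457 and with the column total as library size. *Tubb3*, a neuronal tubulin, was at 17.96 CPM in heart Abeta42_3455, 5.02 CPM in heart ScrAbeta42_3448 and 0.60 to 1.51 CPM in the other high hearts, against 0 to 1.09 CPM in low hearts (3.34, adjusted p = 0.101). It entered the test through the high hearts, so this p adds nothing to its level. Among the untested members *Prph*, peripherin, which was picked after its counts were seen, had 39 and 16 counts in hearts Abeta42_3455 and ScrAbeta42_3448, 2 to 8 in the other high hearts and 0 to 3 in the low hearts. *Hamp*, the iron hormone hepcidin, was picked after its values were seen and was at 37.6, 3.85, 9.38, 0.39, 1.58 and 1.19 CPM in high hearts and at 0.24 CPM or less in low hearts. It entered the test through high hearts only, fell under the filter without mouse Abeta42_3455 and is described by its level alone. Hearts Abeta42_3455 and ScrAbeta42_3448, which led for *Shox2* and *Cntn2*, were thus also the highest for *Tubb3*, *Prph* and *Hamp*.

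Markers of vessels, blood and skeletal muscle gave no calls when high hearts were compared with low hearts. None of 11 endothelial (median -0.19), 6 endocardial (1.03), 6 lymphatic (0.22), 11 smooth muscle and pericyte (0.33), 5 red cell (0.55), 2 platelet (0.54), 1 lymphocyte (1.30) and 8 fast skeletal muscle genes (-0.56) passed in edgeR. At an unadjusted p under 0.05 the endocardial list had 3 members higher, the lymphatic list 2, the smooth muscle list and the platelet list 1 each, and the endothelial and smooth muscle lists 2 members lower each. DESeq2 called 1 lymphatic and 1 smooth muscle gene higher and 0 in the other lists, and limma-voom called 0. Without mouse ScrAbeta42_3448 the medians were -0.0036 for the lymphatic, 0.60 for the smooth muscle, -0.52 for the red cell, 0.23 for the platelet, 2.00 for the lymphocyte and -1.10 for the skeletal muscle list. Without mouse Abeta42_3456 they were 0.39 for the lymphatic, 1.72 for the red cell, 0.12 for the platelet and -0.22 for the skeletal muscle list. The smooth muscle median was also -0.022 without mouse Abeta42_3457 and 0.18 without mouse Abeta42_3452, the endothelial median -0.12 without mouse Abeta42_3452 and the platelet median 0.32 without mouse ScrAbeta42_3442. With the mitochondrial share as a covariate the red cell median was -0.99, the smooth muscle median -0.16 and the endocardial median 0.36. In the endocardial list *Plvap* (1.92, adjusted p = 0.0924) and *Cytl1* (2.00, adjusted p = 0.162) had the smallest p. Without mouse Abeta42_3460 edgeR called *Plvap* (adjusted p = 0.0169), *Cytl1* (0.0396), the lymphatic genes *Lyve1* (0.0354) and *Pdpn* (0.0394) and the platelet gene *Pf4* (0.0492) higher and the endothelial gene *Egfl7* (0.0354) lower. Without mouse Abeta42_3451 it called *Plvap* (0.0488), *Pdpn* (0.0238) and *Pf4* (0.036) higher. With a threshold of 5 edgeR called 3 endocardial, 1 lymphatic, 1 smooth muscle and 1 platelet gene higher and 2 endothelial and 1 smooth muscle gene lower, without the peptide covariate 1 endocardial and 1 lymphatic gene higher, and without a filter 2 of each higher. With the score as a continuous term 3 endocardial, 2 lymphatic, 3 smooth muscle, 1 platelet and 1 endothelial gene were called higher, and 4 smooth muscle and 3 endothelial genes lower. No lung gene was tested. *Scgb1a1*, a secretory protein of the airway, named for its counts, had 30 and 29 counts in low hearts ScrAbeta42_3449 and ScrAbeta42_3447 and at most 4 in any other heart.

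Energy metabolism genes lay a little below 0 as groups, and none passed in edgeR when high hearts were compared with low hearts. With the score as a continuous term 14 of 18 TCA cycle, 17 of 20 fatty acid, all 21 nuclear respiratory chain and all 7 mitochondrial genome genes were called lower with a rising score, against 941 of all 11980 genes. With a threshold of 5 the calls were 7, 14, 12 and 0, and without mouse Abeta42_3460 2 fatty acid genes were called, *Etfb* (log2 fold change -0.57, adjusted p = 0.022) and *Eci1* (-0.55, adjusted p = 0.0489). All 18 TCA cycle genes (median log2 fold change -0.30), all 20 fatty acid genes (-0.31), all 21 nuclear respiratory chain genes (-0.32) and all 7 tested genes of the mitochondrial genome (-0.48) had values below 0, and 2, 7, 10 and 7 of them were lower at an unadjusted p under 0.05. With the column total as library size the medians were -0.15, -0.17, -0.18 and -0.34, and with the mitochondrial share as a covariate, a share that the genes of the mitochondrial genome make up, they were -0.082, -0.077, -0.11 and -0.053. Without mouse ScrAbeta42_3448 the median of the TCA cycle genes was -0.20. *Cs*, citrate synthase, had medians of 1388 CPM in high and 1713 CPM in low hearts (-0.36, adjusted p = 0.161). *Etfb*, an electron carrier of fatty acid oxidation, had medians of 57.7 and 78.6 CPM (-0.48, adjusted p = 0.146), and *Cyc1*, cytochrome c1, 736 and 935 CPM (-0.40, adjusted p = 0.217). The fatty acid genes summed to 20290, 15221, 18151, 20740, 22558 and 24914 CPM of the column total in the 6 high hearts in order of score, against 22161 to 23414 CPM in low hearts. Heart Abeta42_3460 lay above the low hearts and heart Abeta42_3457 was the lowest, as in the ventricular sum. DESeq2 called 4 of the mitochondrial genome genes lower and none of the other 3 lists, and limma-voom called 0. Of the 13 genes of the mitochondrial genome 6 were under the filter, 5 of them with at most 1 count in any heart.

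The remaining lists had 0 calls in edgeR when high hearts were compared with low hearts, and all but glucose use had medians near 0. These were glucose use (19 genes, median -0.24, 15 of them below 0), mitochondrial biogenesis (10 genes, -0.09), the circadian clock (12 genes, -0.02) and immediate early genes (10 tested genes, -0.05). The last 3 medians were 0.06, 0.15 and 0.11 with the column total as library size. The glucose use median was -0.16 without mouse ScrAbeta42_3448 and -0.014 with the mitochondrial share as a covariate. At an unadjusted p under 0.05 they had 1, 0, 3 and 2 members higher and 4, 1, 0 and 0 lower, and neither DESeq2 nor limma-voom called any. With the score as a continuous term edgeR called 1, 0, 1 and 3 of them higher and 8, 1, 0 and 0 lower, and with a threshold of 5 it called 1, 0, 1 and 2 higher and 7, 0, 0 and 1 lower. Without mouse Abeta42_3460 *Pdk3* (adjusted p = 0.0422) and the clock gene *Nr1d1* (0.0416) were called higher, and without the peptide covariate *Pdk3* (0.026), the clock gene *Ciart* (0.0463) and the immediate early genes *Junb* (0.0471) and *Fos* (0.0494). *Pdk3*, a kinase of pyruvate dehydrogenase, stood apart in the first of them, with medians of 6.09 and 2.32 CPM (1.43, adjusted p = 0.131). None of 5 ventricular stress genes passed, at an unadjusted p under 0.05 either, with a median of 0.40, which was -0.094 without mouse ScrAbeta42_3448, 0.15 without mouse Abeta42_3456, 0.23 without mouse Abeta42_3458 and 0.93 without mouse Abeta42_3452. *Acta1*, skeletal actin, was at 68.4 to 867 CPM in high and 59.1 to 676 CPM in low hearts, and *Ankrd1*, a stretch-responsive protein, was at 1120 to 2026 and 299 to 1754 CPM. Both ranges overlapped widely, unlike that of *Nppa*. Of the 5 genes that the study named for cell types of these hearts, *Nppa* rose and the other 4 did not pass. *Fgfr1* had 0.67 (adjusted p = 0.191), *Rora* 0.12 (adjusted p = 0.520), *Itga1* -0.20 (adjusted p = 0.658) and *Fap* -0.40 (adjusted p = 0.327). A threshold of 5 or the score as a continuous term gave 2 calls higher among the 5 genes.

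**Figure D4:**
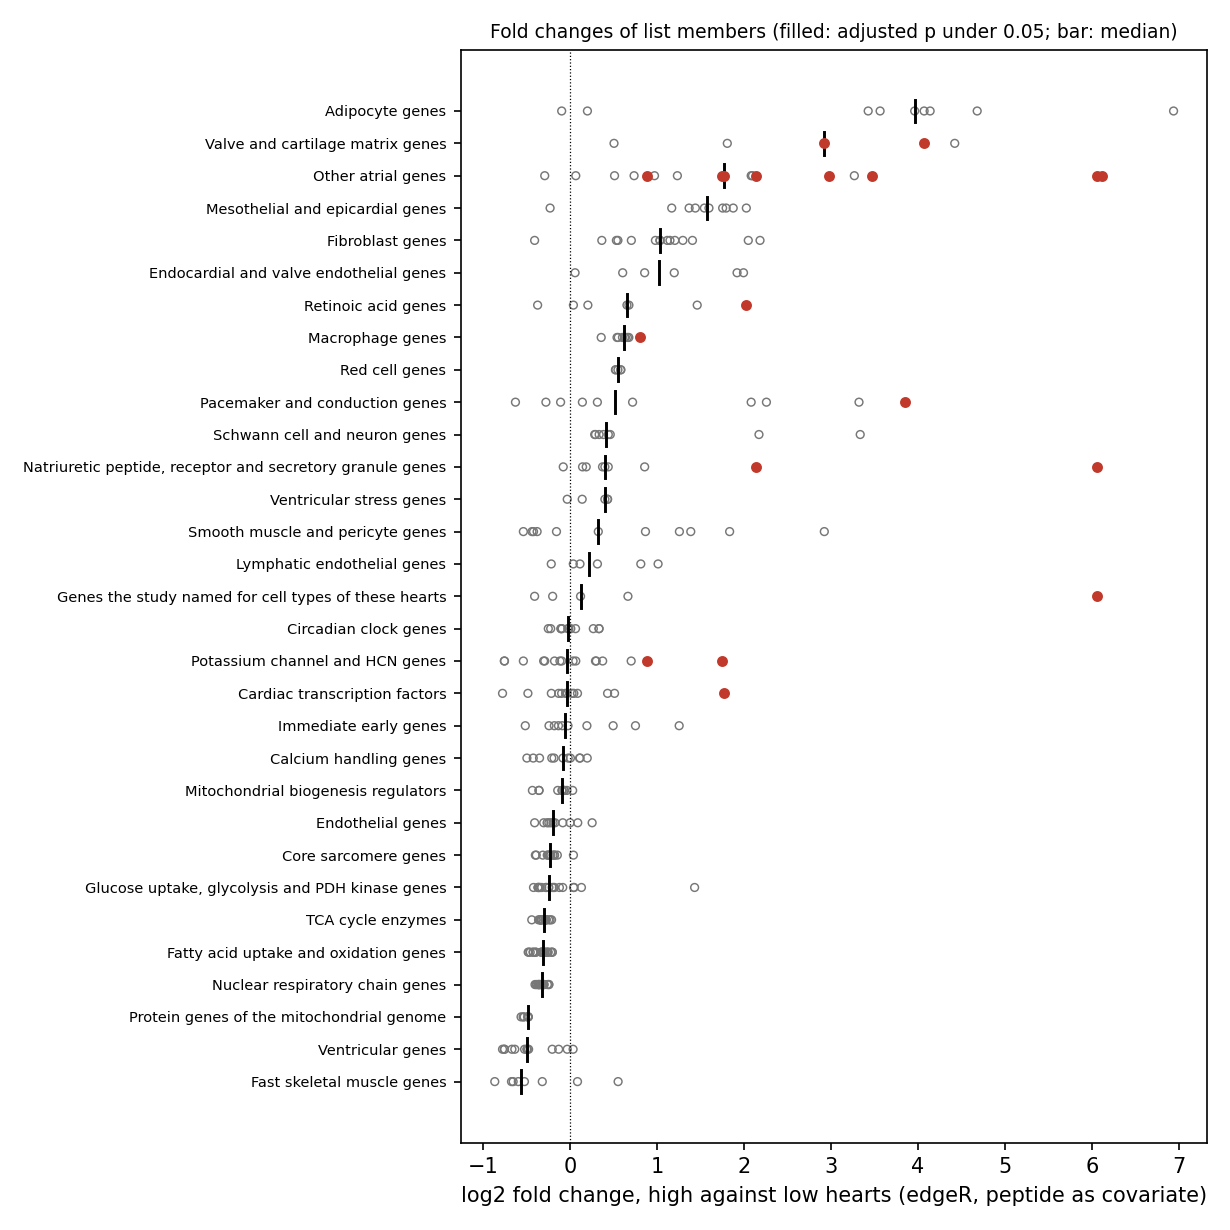
Log2 fold change of high against low hearts for each tested member of 31 lists (rows, ordered by median), with filled red points for an adjusted p under 0.05 in edgeR and a black bar at the median. Adipocyte, valve, atrial, mesothelial and fibroblast genes lie mostly to the right of 0, and the lists of energy metabolism and ventricular genes lie mostly to the left, with no filled point.

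The 16 hearts of the antibody study were not used by the rule. Of these, 8 came from mice that received 3D6, an antibody against Aβ42, and 8 from mice that received a control antibody. The methods of the study describe these mice as fed a high-fat diet, and the series' design text describes them as given Aβ42. Total estimated counts were 6397192 to 8310478 per heart. With the same score and threshold 5 hearts were high, at 7.40 (control antibody, mouse 15), 5.998 (3D6, mouse 20), 5.19 (3D6, mouse 7), 4.77 (3D6, mouse 12) and 4.09 (3D6, mouse 21), and 11 were low. The highest low heart, mouse 11 with the control antibody, scored 3.97, so that no wide gap lay at the threshold. High hearts were thus found with both antibodies and in mice that were in no group of the peptide study.

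High hearts were compared with low hearts of the antibody study in edgeR with the antibody as covariate. Of 12142 genes tested 63 were higher (0.519%) and 1 was lower (0.00824%), and at an unadjusted p under 0.05 the counts were 365 and 150. Of the 133 genes called higher in the peptide study 102 were tested here. Of these 97 lay above 0 (95.1%, against 48.2% of all 11357 genes that both studies tested), 35 were called higher (34.3%) and 0 lower. Their median log2 fold change was 0.725, against -0.00644 over all genes tested in both. Some of the genes called in both studies, such as *Rxfp1*, *Tmem163*, *Cilp2* and *Ppp1r1b*, were near 0 in most low hearts of the antibody study. Such genes could enter the test through the high hearts, so their calls add nothing to their levels. With at least 10 counts in every heart, 63 of the 133 genes were tested, 60 lay above 0 and 16 were called. Of the 3 genes called lower in the peptide study, 2 lay below 0 and 0 were called. Of the 62 genes called higher in the antibody study and tested in the peptide study, all 62 lay above 0 there and 35 were called. The calls rested on mouse 15. Without it 1 of 99 tested genes was called and 85 lay above 0. Both sets of groups were formed with the same 5 genes.

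*Nppa* was at 3838, 911, 885, 491 and 140 CPM in high hearts 15, 20, 7, 12 and 21, at 269 CPM in low heart 11 and at 0.96 to 81.1 CPM in the other 10 low hearts (log2 fold change 5.67, adjusted p = 0.000341). *Dkk3* was at 190, 49.4, 62.4, 31.2 and 14.0 CPM, at 14.1 CPM in heart 11 and at 0.32 to 3.38 CPM in the others (5.37, adjusted p = 6.49e-06). *Fgf12* was at 41.4, 8.33, 9.502, 5.87 and 1.17 CPM, at 2.85 CPM in heart 11 and at 0 to 0.67 CPM in the others (5.59, adjusted p = 6.6e-05). It was near 0 in most low hearts and entered the test through the high hearts, so its call adds nothing to its level. For these 3 genes the only overlap was between heart 21, just inside the threshold, and heart 11, just outside it. *Pam* (2.03, adjusted p = 0.00114), *Stard10* (1.91, adjusted p = 0.00249) and *Sbk2* (2.09, adjusted p = 0.00706) were also called, and *Tbx5* (0.82, adjusted p = 0.152), *Kcnj3* (0.80, adjusted p = 0.406) and *Kcnj5* (0.54, adjusted p = 0.694) were not. Of the atrial list 8 of 16 tested members were called, among them *Gja5* (1.75, adjusted p = 0.0495), *Cacna2d2* (1.67, adjusted p = 0.0246) and *Nr2f2* (0.82, adjusted p = 0.00431), which had not passed in the peptide study. Ventricular genes had 0 of 13 called and a median of -0.20. Outside the chambers, 1 of 4 tested mesothelial genes was called (*Upk3b*, 3.77, list median 0.94). So were 1 of 15 fibroblast genes (*Mfap4*, 1.10, median 0.33) and 1 of 3 valve genes (*Comp*, median 0.15). *Upk3b* was at 1.28 CPM or less in low hearts and entered the test through the high hearts, so its call adds nothing to its level. *Mrc1* was at 0.04, and 0 of 9 macrophage genes were called. Only 2 adipocyte genes were tested there, with 0 called. Whether the 2 studies differ for any gene was not tested.

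**Figure D5:**
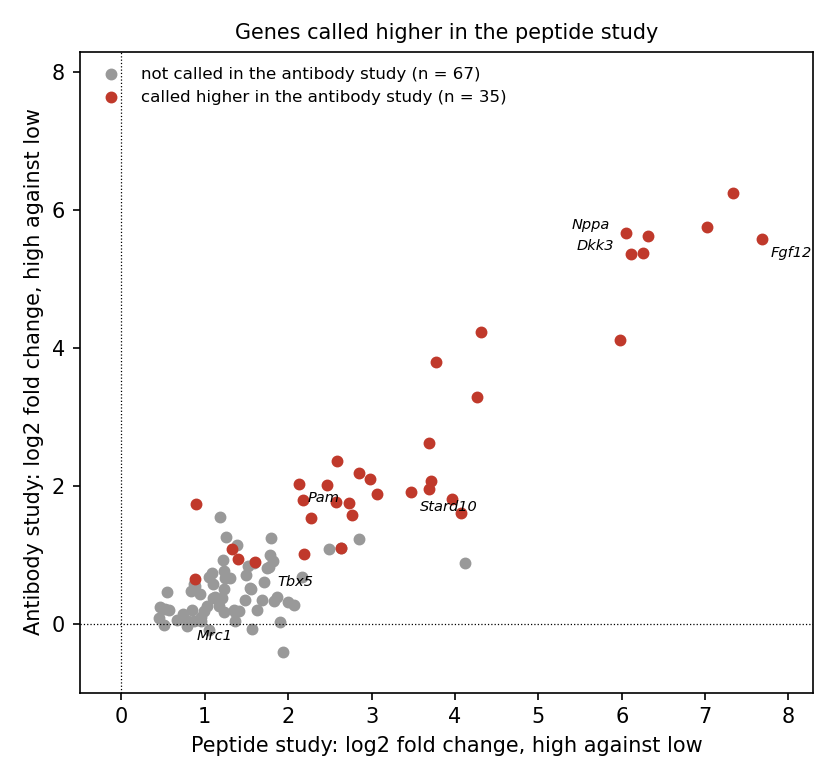
Log2 fold change of high against low hearts in the peptide study (x axis) and in the antibody study (y axis) for the 102 genes called higher in the peptide study and tested in both, with red points for the 35 called higher in the antibody study. Of the 102 points 97 lie above 0 on the y axis, and *Nppa*, *Dkk3* and *Fgf12* lie at the upper right.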

How the data were processed

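Left ventricles of 14 mice of the peptide study and 16 of the antibody study were sequenced as stranded total RNA. Per the labels and the methods of the study, the authors mapped reads with Salmon to GENCODE transcripts of GRCm38. The peptide table, as deposited, holds raw whole-number counts of 49671 Ensembl genes, and the antibody table, as deposited, holds estimated counts of 142647 transcripts, neither of them scaled. How the gene counts were summed is not given in the sources used here. Here transcripts were summed to 55263 genes with a GENCODE annotation of GRCm38 that lists 99.21% of them (0.381% of counts lay outside) and rounded. Of the peptide table's genes 99.48% are in it. The peptide table has 1 count column with no labelled mouse, which was not used. Gene names are those of that annotation, positions are 1-based, and promoters are RefSeq's.

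Each study was fitted separately in edgeR 4.0.16 (R 4.3.3) on genes whose counts averaged 10 or more over hearts, with TMM, glmQLFit and glmQLFTest, two-sided, Benjamini-Hochberg adjustment over all genes tested and a threshold of 0.05. The score genes stayed in the fit and out of the counts. CPM are TMM-normalised unless named as CPM of the column total, and log2 CPM used a prior count of 2. For single values, exact permutation tests ran over 3003 regroupings of the 14 hearts, without the peptide as a covariate. The hearts, the 34 gene lists and the tests were chosen with earlier results of these data known. Genes named were the 15 called higher and 15 lower with the smallest p, the atrial and ventricular lists, up to 4 members with the smallest p of every other list, and the genes the study named, and any others are said to be picked by value. On simulated counts that held 200 genes shifted by 1 on the log2 scale, 69.5% were recovered in the peptide design with 7 false calls among 11888 genes, and 81.5% in the antibody design with 1 among 12064. For a shift of 2 these were 96.0% with 9 among 11900 and 96.5% with 8 among 12074. In the simulated counts every high heart was shifted by the same amount and no peptide or antibody effect was added. The real high hearts of the peptide study scored from 4.58 to 9.60, so these rates may not hold for them.

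Alternatives were RLE size factors, the column total as library size, DESeq2 1.42.0, limma-voom (limma 3.58.1), no filter or at least 10 counts in every heart, no covariate, the score as a continuous term, a threshold of 3 or 5, Aβ42 hearts only and leaving out each mouse. The mitochondrial share as a covariate and leaving out each high antibody heart were added after the data were seen. Figures were drawn with matplotlib 3.10.9. Some list members are not reported here by name and stay in the counts of their lists.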

Additional observations from a re-analysis of the deposited data

Results flagged for a closer look

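In 10 of 194 groups of 1 gene in the high or low hearts, 1 heart stood apart from the rest by Dixon's test on log2 CPM, and chance alone gives about 1 in 20 groups. Among the high hearts, mouse Abeta42_3457 was far below the other 5 for *Myl2* (804 CPM), *Myl3* (737 CPM) and *Kcnip2* (28.3 CPM), and mouse Abeta42_3460 was far below them for *Lmntd1* (0.198 CPM). Among the low hearts, mouse ScrAbeta42_3443 was far above the other 7 for *Dkk3* (30.6 CPM), *Cilp2* (1.53 CPM) and *Chad* (10.1 CPM). Low heart ScrAbeta42_3449, the nearest to the threshold, stood above the others for *Fhl2* (1482 CPM) and below them for *Kcnip2* (134 CPM). It also stood above them for *Mybphl* (2.71 CPM), which is counted among the 10 groups. *Mybphl* is a score gene and helped to place this heart nearest the threshold, so its test adds nothing to the score.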

How the results depend on the processing

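Of the 133 genes called higher, 133 were called with RLE (134 higher, 3 lower), with the column total as library size (213 and 0), with the score as a continuous term (1566 and 941) and with a threshold of 3 (133 and 3), 130 with DESeq2 (387 and 29), 127 with a threshold of 5 (1162 and 564), 129 without a filter (472 and 11), 108 without the covariate (372 and 31) and 12 with at least 10 counts in every heart (12 and 0, with 592 lower at an unadjusted p under 0.05). With the column total 139 genes were lower at an unadjusted p under 0.05. In limma-voom 0 and 0 genes were called (1439 and 862 at an unadjusted p under 0.05), in Aβ42 hearts alone 0 and 0 (433 and 116), and with the mitochondrial share as a covariate 0 and 0 (264 and 104, smallest adjusted p 0.333). Leaving out each mouse gave 0 to 711 higher and 0 to 100 lower. The cause was not tested. Of the 102 genes tested in the antibody study 35 were called, with 16 of 63 for at least 10 counts in every heart and 1 to 41 without a high heart. The difference in mitochondrial share was -3.63 to -1.97 percentage points over mice left out. The difference in total count was -73097.4 in Aβ42 hearts alone and -45926 to 165539 over mice left out. None of the 31 named genes that were called changed sign in the settings that tested them. Without mouse ScrAbeta42_3448 the peptide covariate and the level are less separable, since all 5 remaining high hearts were given Aβ42. No paired analysis was possible because the mouse numbers are not shared between groups. At this depth, genes under 10 counts on average were not tested.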
